A study of Homo sapiens and Mus musculus with 5 samples.

Results

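The SNPs described here are the 29 of chromosome 3 that a reporter library for SNP alleles linked to schizophrenia held, apart from 3 other positions of that chromosome that are not described here. The rule that picks them uses the chromosome and position alone and no measured value, and they include SNPs in OSBPL10 and ZNF860, in ITIH1 and beside TBL1XR1. They were carried by 82 of the 984 fragments and gave 141 of the 1625 fragment alleles in the tables, of 347 SNPs in all. Up to 3 fragments held a SNP, which had 50, 100 or 150 bases before it and 150, 100 or 50 after it, called the 50-, 100- and 150-front placements below. Each fragment came with allele 1, allele 2 or both, numbered as in the tables, and the bases of the alleles and fragments were not used here.

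The plasmid pool was transfected into 4 lines. Neuro-2a is of mouse and SH-SY5Y of human neuroblastoma, HEK-293T is of human embryonic kidney, and PC-12 is of rat pheochromocytoma, although its organism label reads mouse. Where 4 values stand together without line names, they follow that order. The labels name no drug and no genetic change. Each had 3 RNA libraries except PC-12, which had replicates 1 and 3, and all shared 3 input libraries made from the plasmid pool before transfection. Human fragments were thus read in rodent cells in Neuro-2a and PC-12. The assay counted reporter fragments only, so the lines could not be checked against marker genes.

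In STARR-seq, a candidate enhancer is cloned inside the transcription unit of a reporter, so that a fragment able to raise transcription is copied into its own RNA. Enhancers are stretches of DNA that bind transcription factors and act on promoters at a distance, and most common variants linked to psychiatric traits lie outside protein-coding sequence. The region around the ITIH genes on the short arm of chromosome 3 is among the loci most often linked to schizophrenia and bipolar disorder, and its SNPs are inherited together over many genes. A plasmid reporter reads a fragment outside its own chromatin, so it tests what the sequence can do in a given cell and not what it does at its locus.

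With the gene names of GRCh38.p14, 22 of the 29 positions lay inside a protein-coding gene and the others are named by the nearest one. No source used here names the build of the positions, so the names hold if it is that one. The table of genes holds no exons, and exon or intron could not be told apart. The genes described below were, from low to high position, UBE2E2 (nearest), OSBPL10 with ZNF860, PDCD6IP (nearest), TRANK1 (1 SNP inside, 1 nearest), RASSF1, DOCK3 (2 SNPs), DCAF1, WDR82 (1 inside, 1 nearest), GLYCTK (nearest), PBRM1, ITIH1, ITIH4 (nearest), ERC2, C3orf49 with THOC7, THOC7, ATXN7, IFT57, EEFSEC, PPP2R3A, STAG1 (4 SNPs) and TBL1XR1 (1 inside, 1 nearest).

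A fragment allele is given an activity, its RNA abundance over its input abundance on a log2 scale, scaled so that the typical allele of the library lies near 0 (the median over all alleles was 0.01 in Neuro-2a, -0.01 in SH-SY5Y, -0.01 in PC-12 and -0.11 in HEK-293T). It therefore ranks fragments against the library and not against an empty reporter. Fitted values below are given ± SE from 3 RNA and 3 input libraries (2 RNA libraries in PC-12), and a call means a Benjamini-Hochberg adjusted p under 0.05 over the whole table of a line in edgeR's quasi-likelihood test. The protocols call the libraries biological replicates and name no day of transfection.

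RNA libraries held 5875437 to 10201521 counts and input libraries 6380682 to 8421333, of which the 29 SNPs took 9.59% to 10.89% and 9.16% to 9.43%. The counts of single alleles printed below are not scaled to these totals. Whether an RNA count lies above or below an input count thus depends partly on depth. RNA replicate 1 stood apart in every line by the spread of its log2 ratios. The median absolute log2 ratio of RNA to input over the member alleles was 0.37 to 0.55 in replicate 1 and 0.92 to 1.07 in replicates 2 and 3, against 0.40 to 0.51 and 0.73 to 0.90 over all alleles. Over member alleles, Pearson's r of the log2 ratios between replicate 1 and replicate 2 or 3 of the same line was 0.31 to 0.66. Between replicates 2 and 3 it was 0.67 to 0.88 (115 to 135 alleles per pair, which share the input). Counts of 0 in an RNA library numbered 1 to 15 per library among the member alleles. The 15 were in HEK-293T replicate 2, where 16.4% of all alleles were at 0, against 1.02% and 1.6% in its replicates 1 and 3. In HEK-293T r was 0.662 between replicates 1 and 3 and 0.668 between replicates 2 and 3. There r did not set replicate 1 apart, and with 2 RNA libraries in PC-12 it cannot. Without HEK-293T replicate 2, 12 of 138 member alleles (10.57% of all alleles) were called in activity, against 3 (2.37%) with it. Because replicate 1 stood apart in spread in every line, counts of calls are given below with and without it. The PC-12 count then rests on 1 RNA library, with the spread taken from the input alone.

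Most member alleles were called in no line, and a few SNPs were called in several. Fragments of the SNPs next to ITIH4 (50-front, allele 1), in EEFSEC (100-front, allele 1), in STAG1 (150-front, allele 1) and next to TBL1XR1 (100-front, allele 2) were above the input in 3 lines each, and those in ITIH1 (150-front, allele 1) and next to UBE2E2 (100-front, allele 2) were below it in 3 lines each. Of the 141 member alleles, these 6 were called in 3 lines, 5 in 2 lines, 22 in 1 line and 108 in none, and 0 in all 4. Neuro-2a had 10 of 133 called (9 above and 1 below the input), SH-SY5Y 23 of 138 (17 and 6), HEK-293T 3 of 138 (2 and 1) and PC-12 14 of 141 (10 and 4). These were 7.52%, 16.7%, 2.17% and 9.93% of the member alleles, and over all alleles the calls came to 5.78%, 12.9%, 2.37% and 10.4%. The members' shares thus lay near those of the library. Over the 4 lines the 50 calls fell on 33 alleles of 16 SNPs, and in all 50 every RNA library of the line had the sign of the call. Calls above the input ran from 0.53 to 6.54 with a median of 1.24, and calls below from -3.78 to -1.20. Without RNA replicate 1, 63 of 133, 87 of 138 and 56 of 138 member alleles passed in Neuro-2a, SH-SY5Y and HEK-293T. Over all alleles the shares were 41.26%, 54.93% and 31.77%, and each call of these 3 lines was kept. Without RNA replicate 2 or 3, 9 and 9 of the 10 Neuro-2a calls and 13 and 13 of the 23 SH-SY5Y calls passed. Of the 3 HEK-293T calls, 3 and 0 did. Without replicate 1 or 3 PC-12 keeps 1 RNA library, so those fits cannot show whether the PC-12 calls were stable. Without any 1 of the input libraries no member allele passed in any line, and over all alleles 3 passed in SH-SY5Y and 0 in the other lines.

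The 7 SNPs between positions 52000000 and 54000000, the neighbourhood of the ITIH genes, had 4 calls among 33 alleles for Neuro-2a, 8 among 32 for SH-SY5Y, 1 among 32 for HEK-293T and 6 among 33 for PC-12. The other 22 SNPs had 6 among 100, 15 among 106, 2 among 106 and 8 among 108. In the 4 lines the shares were 12.1% against 6%, 25% against 14.2%, 3.12% against 1.89% and 18.2% against 7.41%, and these differences were not tested. Over all alleles the calls came to 5.78%, 12.9%, 2.37% and 10.4%. Alleles and fragments of the same SNP were counted as separate units. The SNPs at ITIH4, ITIH1 and GLYCTK held 6, 4 and 3 of the calls of this neighbourhood. The median absolute activity was 0.91 against 0.78, 0.91 against 0.75, 0.88 against 0.72 and 1.10 against 0.66.

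By placement, the 50-front alleles gave 3 calls of 43, 8 of 45, 0 of 45 and 4 of 45 in the 4 lines, against 8.09%, 14.2%, 2.03% and 11.6% of all alleles at that placement. The 100-front alleles gave 5 of 48, 10 of 47, 1 of 48 and 7 of 49, against 5.17%, 13.7%, 2.42% and 10.5%. The 150-front alleles gave 2 of 42, 5 of 46, 2 of 45 and 3 of 47, against 4.22%, 10.9%, 2.64% and 9.23%. In HEK-293T 16 of the 45 member alleles at 50-front had an unadjusted p under 0.05 in edgeR, against 113 of all 493. Called alleles thus came from every placement, and which placement was called differed from SNP to SNP, as described in turn.

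ITIH1 encodes a heavy chain of the inter-alpha-trypsin inhibitors, serum proteins that bind hyaluronan. The SNP in it, at position 52781889, lay below the input in 2 of its 3 placements. Allele 1 at 150-front had input counts of 10622, 9075 and 11384. Its RNA counts were 3086, 6489 and 4293 in Neuro-2a, 4221, 1213 and 873 in SH-SY5Y, 3030 and 3949 in PC-12 and 2367, 1416 and 1354 in HEK-293T. The RNA counts lay below every input count in all 11 RNA libraries. Activity was -2.42 ± 0.45 for SH-SY5Y, -2.37 ± 0.35 for HEK-293T and -1.38 ± 0.21 for PC-12 (edgeR, Benjamini-Hochberg adjusted p = 0.0281, 0.0407 and 0.0295), and -0.74 ± 0.27 in Neuro-2a (adjusted p = 0.162).

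With the ITIH1 SNP in the middle of the fragment, both alleles were lower still. Allele 1 at 100-front had 3917, 3335 and 4285 input counts. Its RNA counts were 473, 630 and 0 for Neuro-2a, 29, 0 and 2 for HEK-293T and 270 and 408 for PC-12, where activity was -3.31 ± 0.32 (edgeR, Benjamini-Hochberg adjusted p = 0.0114). The SH-SY5Y table has no value for this allele. Allele 2 at 100-front, with 7023, 5959 and 7572 input counts, had RNA counts of 877, 950 and 167 in Neuro-2a, 0, 112 and 301 in SH-SY5Y, 32 and 0 in PC-12 and 64, 941 and 0 in HEK-293T. All 11 RNA counts of allele 2 were below every input count, and the fitted activities of -2.96, -5.34, -4.31 and -8.62 did not pass (adjusted p = 0.0646, 0.102, 0.272 and 0.0661). Counts of 0 stood in 1 RNA library of SH-SY5Y, HEK-293T and PC-12 for that allele.

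At 50-front the alleles of the ITIH1 SNP lay far apart in the input. Allele 2 was among the most abundant member alleles of the input, at 19022, 16167 and 20738, and its activity was 0.27, -0.17, -0.27 and 0.40 in the 4 lines, none called. Allele 1 was the rarest member allele of the input, at 49, 47 and 54. Its RNA counts were 0, 7419 and 7978 in Neuro-2a, 0, 5705 and 4501 in SH-SY5Y, 0 and 8539 in PC-12 and 0, 4243 and 5122 in HEK-293T. Replicate 1 had no read of it in any line, and every other RNA library had more reads of it than any input library. The fitted activities of 7.12 ± 2.63, 6.38 ± 2.51, 6.08 ± 2.46 and 6.66 ± 3.03 were the highest of all member alleles in each line and passed in none (edgeR, Benjamini-Hochberg adjusted p = 0.162, 0.139, 0.216 and 0.222). Without RNA replicate 3 the PC-12 value was -8.63, with replicate 1 as the only RNA library.

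The SNP nearest to ITIH4, a family member of ITIH1, lay at position 52811089 and was above the input in most of its fragments. Allele 1 at 50-front had 16807, 13646 and 17605 input counts and RNA counts of 22099, 21407 and 25390 in Neuro-2a, 38930, 27768 and 23897 in SH-SY5Y, 25711 and 21004 in PC-12 and 27633, 26916 and 22367 in HEK-293T. Every RNA count exceeded every input count. Activity was 0.97 ± 0.15, 0.96 ± 0.11 and 0.71 ± 0.07 in the 3 lines with a call, Neuro-2a, SH-SY5Y and PC-12 (edgeR, Benjamini-Hochberg adjusted p = 0.0277, 0.0103 and 0.0126), and 0.88 ± 0.15 in HEK-293T (adjusted p = 0.0538). Allele 2 of the same fragment, with 3286, 2767 and 3453 input counts, had 6891, 4637 and 3997 RNA counts in SH-SY5Y and 5722 and 4325 in PC-12, with activities of 0.74 ± 0.16 and 0.83 ± 0.13 (adjusted p = 0.0401 and 0.0327). Allele 2 at 100-front had 7658, 6954 and 8784 input counts and 19010, 32200 and 28780 RNA counts in SH-SY5Y, an activity of 1.93 ± 0.38 (adjusted p = 0.033). Its values of 1.71, 1.75 and 1.40 in Neuro-2a, HEK-293T and PC-12 were not called. Over its fragments, alleles and lines, this SNP ranged from 0.24 to 1.93, so no value was below 0.

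GLYCTK encodes glycerate kinase, and the SNP nearest to it, at position 52299655, was likewise above 0 in all 16 values, from 0.82 to 1.87. In Neuro-2a the called allele was allele 1 at 100-front, with 5208, 4243 and 5306 input and 7595, 21040 and 11718 RNA counts and an activity of 1.87 ± 0.36 (edgeR, Benjamini-Hochberg adjusted p = 0.0451). In SH-SY5Y allele 2 at 150-front, with 2541, 2205 and 2868 input and 5528, 8412 and 7460 RNA counts, reached 1.64 ± 0.36 (adjusted p = 0.0401). Allele 1 at 50-front, with 3902, 3435 and 4358 input and 13386, 4931 and 6259 RNA counts, reached 1.04 ± 0.23 in the same line (adjusted p = 0.0416). Each call of this SNP was lost without RNA replicate 3 (adjusted p = 0.0725, 0.0829 and 0.0629), with fitted values of 1.91, 1.57 and 1.10. Such losses were not particular to this SNP. In SH-SY5Y 10 of the 23 calls were lost without replicate 3 and 10 without replicate 2. The 3 HEK-293T calls were all lost without replicate 3. They were ITIH1 and STAG1 allele 1 at 150-front and TBL1XR1 allele 2 at 100-front (edgeR, adjusted p = 0.078, 0.068 and 0.066).

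PBRM1 encodes a bromodomain subunit of a chromatin-remodelling complex. The SNP in it, at position 52594040, ranged from -2.54 to 1.68, and its placements lay on both sides of 0. Allele 2 at 50-front had 1613, 1426 and 1712 input and 2544, 3821 and 3406 RNA counts in Neuro-2a, an activity of 1.48 ± 0.27 (edgeR, Benjamini-Hochberg adjusted p = 0.0387). Allele 1 at 100-front had 2378, 2595 and 2889 input and 5523, 5607 and 5584 RNA counts in SH-SY5Y, an activity of 1.18 ± 0.26 (adjusted p = 0.0401). Allele 1 at 150-front was at -0.96, -1.03, -0.81 and -2.54 in the 4 lines, with no call.

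WDR82, a subunit of histone methyltransferase complexes, had 1 SNP inside and 1 nearest. Of the nearest, at position 52253452, allele 2 at 100-front had 9236, 7834 and 9773 input counts, with RNA counts of 11078, 11744 and 12265 in Neuro-2a and 11924 and 11064 in PC-12. Its activity was 0.83 ± 0.14 and 0.53 ± 0.08 (edgeR, Benjamini-Hochberg adjusted p = 0.0278 and 0.0327), the latter the smallest called value of all members. Allele 1 of that fragment had 0, 19751 and 15182 RNA counts in Neuro-2a and 0, 14950 and 17089 in SH-SY5Y against 17058, 14579 and 19187 in the input, so that replicate 1 alone was at 0. The SNP inside WDR82, at position 52274829, had no call and ranged from -1.57 to 0.15.

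Outside that neighbourhood, the SNP at position 31997390 lay inside both OSBPL10, an oxysterol-binding-protein relative that moves lipids, and the zinc-finger gene ZNF860. It held the highest called activity of all members. Allele 1 at 50-front was rare in the input, at 107, 73 and 73, and had RNA counts of 3813, 7726 and 5944 in Neuro-2a, 0, 4674 and 5606 in SH-SY5Y, 71 and 10534 in PC-12 and 0, 4892 and 5829 in HEK-293T. All 3 Neuro-2a libraries exceeded every input count, while replicate 1 was at 0 in SH-SY5Y and HEK-293T and at the level of the input counts in PC-12. Activity was 6.54 ± 0.43 in Neuro-2a (edgeR, Benjamini-Hochberg adjusted p = 0.00413), and the values of 5.63 ± 2.43, 5.52 ± 2.41 and 6.22 ± 2.04 in SH-SY5Y, HEK-293T and PC-12 were not called (adjusted p = 0.167, 0.245 and 0.131).

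Allele 2 of the same OSBPL10 fragment was common in the input, at 8041, 6545 and 8746. It had 16020, 11695 and 10763 RNA counts in SH-SY5Y and 19780 and 16671 in PC-12, where it was called at 0.78 ± 0.12 and 1.40 ± 0.08 (edgeR, Benjamini-Hochberg adjusted p = 0.0214 and 0.00477). In Neuro-2a, with 6806, 13938 and 8099, and HEK-293T, with 8472, 13420 and 11404, its activities of 0.73 ± 0.27 and 0.69 ± 0.15 were not called. At 100-front neither allele was called. Allele 1, with 1220, 983 and 1344 input counts, had fitted values of 2.31, 2.73, 1.71 and 2.07, and allele 2, with 8841, 7011 and 9431, had 1.10, 1.00, 0.34 and 1.51. RNA counts of allele 1 at 100-front were 1126, 5853 and 5901 in Neuro-2a, 1048, 8117 and 10347 in SH-SY5Y, 1705 and 6779 in PC-12 and 848, 2889 and 6557 in HEK-293T, and replicate 1 was the lowest in each line.

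Allele 1 of the OSBPL10 SNP at 150-front was called in part of the lines. Against input counts of 8735, 7237 and 9136, the RNA counts were 22367, 40370 and 36695 in Neuro-2a and 45871 and 30446 in PC-12, but 19175, 0 and 626 in HEK-293T and 34701, 309 and 1233 in SH-SY5Y. In the first pair of lines every RNA count exceeded every input count, and in the second pair replicate 1 alone did. The allele was called at 2.43 ± 0.25 in Neuro-2a and 2.35 ± 0.15 in PC-12 (edgeR, Benjamini-Hochberg adjusted p = 0.00955 and 0.00526), and was at 0.18 ± 1.40 and -0.00 ± 2.20 in SH-SY5Y and HEK-293T. In SH-SY5Y the value without RNA replicate 1 was -3.14 (adjusted p = 0.0187). The test of a difference between the 4 lines gave an unadjusted p of 0.489 for this allele. Allele 2 of that fragment, with 532, 495 and 564 input counts, was called in PC-12 at 2.00 ± 0.29 on RNA counts of 2431 and 1407 (adjusted p = 0.0269). Its RNA counts in the other lines were 370, 807 and 1094 (Neuro-2a), 1419, 410 and 614 (SH-SY5Y) and 639, 3200 and 497 (HEK-293T), with no call.

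TBL1XR1 encodes a WD-repeat protein of nuclear receptor corepressor complexes. The SNP nearest to it, at position 177010804, was above the input at 100-front in 3 lines but not in Neuro-2a. Allele 2 had 11806, 9627 and 12005 input counts and RNA counts of 5417, 11175 and 5689 in Neuro-2a, 20582, 26538 and 22208 in SH-SY5Y, 15591 and 17995 in PC-12 and 16249, 28520 and 26937 in HEK-293T. Its activity was 1.18 ± 0.28, 1.27 ± 0.18 and 0.77 ± 0.14 in SH-SY5Y, HEK-293T and PC-12 (edgeR, Benjamini-Hochberg adjusted p = 0.0461, 0.0407 and 0.0439), against -0.17 ± 0.28 in Neuro-2a (adjusted p = 0.774). Allele 1, with 7139, 6119 and 7596 input counts, had RNA counts of 2765, 1054 and 468 in Neuro-2a, 14201, 9516 and 8799 in SH-SY5Y, 11006 and 5815 in PC-12 and 10343, 12050 and 8991 in HEK-293T. All 3 Neuro-2a counts of allele 1 were below every input count, and in SH-SY5Y and HEK-293T all 6 were above. Its activity of 0.68 ± 0.12 in SH-SY5Y was called (adjusted p = 0.0248), and those of -1.86 ± 0.65 for Neuro-2a, 0.78 ± 0.15 for HEK-293T and 0.42 ± 0.25 for PC-12 were not (adjusted p = 0.146, 0.0703 and 0.319).

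The other fragments of this TBL1XR1 SNP had no call. Allele 1 at 150-front, with 7437, 5853 and 7900 input counts, was at -0.75, -0.11, 0.23 and -0.50 in the 4 lines. Allele 2 at 150-front was rare in the input, at 102, 81 and 110, with RNA counts of 0, 1285 and 871 for SH-SY5Y, 159, 1269 and 947 for HEK-293T and 144 and 385 for PC-12 and fitted values of 3.18 ± 2.02, 3.14 ± 0.98 and 1.65 ± 0.70. At 50-front allele 2, with 1866, 1595 and 2034 input counts, had RNA counts of 1424, 2057 and 2911 in Neuro-2a, 12353, 1222 and 1054 in SH-SY5Y, 2909 and 754 in PC-12 and 2061, 1300 and 5578 in HEK-293T. In SH-SY5Y replicate 1 of it was far above the others, and without that library the value moved from 1.16 to -0.36. The SNP inside TBL1XR1, at position 177072328, was below 0 in all 8 values, up to -1.15, with no call and with a count of 0 in 1 RNA library of 6 of them.

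The SNP nearest to UBE2E2, which encodes a ubiquitin-conjugating enzyme, lay at position 23189265 and held the lowest called activity of the members. Allele 2 at 100-front had 5543, 4592 and 5821 input counts and RNA counts of 936, 451 and 351 in Neuro-2a, 754, 780 and 709 in SH-SY5Y, 311 and 371 in PC-12 and 995, 2429 and 321 in HEK-293T, all below every input count. Its activity was -2.76 ± 0.45, -2.73 ± 0.27 and -3.78 ± 0.21 in Neuro-2a, SH-SY5Y and PC-12 (edgeR, Benjamini-Hochberg adjusted p = 0.0278, 0.0062 and 0.00477), and -1.96 ± 0.68 in HEK-293T (adjusted p = 0.167). Allele 1 of this fragment, with 7880, 6299 and 8077 input counts, had RNA counts of 1327, 306 and 1783 in Neuro-2a, 1940, 599 and 426 in SH-SY5Y, 734 and 0 in PC-12 and 1403, 2519 and 565 in HEK-293T. It was called in SH-SY5Y at -3.02 ± 0.44 (adjusted p = 0.0195), and its values in the other lines were -2.22, -2.16 and -4.24. At 50-front allele 2 was at -0.82 to -0.13 in SH-SY5Y, HEK-293T and PC-12 and -1.23 in Neuro-2a, and at 150-front allele 1 ran from 0.13 to 2.11. The latter had 551, 500 and 630 input counts, with 433, 4420 and 1944 RNA counts in HEK-293T and 0 and 1400 in PC-12.

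EEFSEC, the elongation factor that brings selenocysteine to the ribosome, holds the SNP at position 128174008. Allele 1 at 100-front had 11690, 10281 and 12900 input counts and RNA counts of 17086, 28017 and 26927 in Neuro-2a, 26224, 20626 and 30790 in SH-SY5Y, 24990 and 23765 in PC-12 and 13226, 33937 and 21183 in HEK-293T. Every RNA count exceeded every input count. Activity was 1.49 ± 0.22, 1.25 ± 0.25 and 1.24 ± 0.07 in Neuro-2a, SH-SY5Y and PC-12 (edgeR, Benjamini-Hochberg adjusted p = 0.026, 0.0325 and 0.00477), and 1.12 ± 0.27 in HEK-293T (adjusted p = 0.0991). Allele 2, with 5504, 4824 and 6118 input counts, was called in Neuro-2a at 0.89 ± 0.17 on 6584, 9039 and 6952 RNA counts and in PC-12 at 1.09 ± 0.15 on 12367 and 8541 (adjusted p = 0.0401 and 0.0254). At 50-front the values were lower. Allele 2 there, with 12358, 10466 and 13234 input counts, had 7865, 4505 and 3401 RNA counts in SH-SY5Y and an activity of -1.20 ± 0.18 (adjusted p = 0.0198). Its values of -1.41 in HEK-293T, -0.58 in PC-12 and 0.08 in Neuro-2a were not called, and the placement test of allele 2 between 50-front and 100-front did not pass in SH-SY5Y (1.85 ± 0.34, adjusted p = 0.0615).

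STAG1, a subunit of cohesin, the ring that holds DNA loops, had 4 SNPs in it. At position 136435986, allele 1 at 150-front had 10314, 8132 and 10596 input counts and RNA counts of 17375, 19816 and 17476 in Neuro-2a, 42392, 19760 and 22388 in SH-SY5Y, 21004 and 434 in PC-12 and 13897, 24402 and 22761 in HEK-293T. All RNA counts exceeded every input count except replicate 3 of PC-12. Activity was 1.35 ± 0.11, 1.54 ± 0.14 and 1.24 ± 0.18 in Neuro-2a, SH-SY5Y and HEK-293T (edgeR, Benjamini-Hochberg adjusted p = 0.00955, 0.00556 and 0.0407), and 0.25 ± 1.41 in PC-12. Allele 2 of it, with 1915, 1578 and 2020 input and 5472, 4082 and 3400 RNA counts, was called in SH-SY5Y at 1.28 ± 0.19 (adjusted p = 0.0195). Allele 1 at 100-front had input counts of 9858, 671 and 11134, so that input replicate 2 was far below the other two, and its values of 0.73 to 1.07 were uncalled.

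At position 136418580, also in STAG1, allele 2 at 150-front had 3772, 2920 and 3781 input and 2481, 928 and 1204 RNA counts in SH-SY5Y, an activity of -1.21 ± 0.27 (edgeR, Benjamini-Hochberg adjusted p = 0.0401). The other STAG1 positions had no call. At 136580037 only the 50-front fragment was in the tables, with allele 1 at -1.46 to -0.87 and allele 2 at 0.25 to 0.91. At 136652849 the values ran from -1.02 to 2.48. The highest of them was allele 1 at 50-front in SH-SY5Y, with 1396, 1162 and 1487 input and 2473, 7526 and 9263 RNA counts (adjusted p = 0.0586).

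THOC7 encodes a subunit of the THO complex of messenger RNA export, and 2 SNPs lay in it, 1 of them also in C3orf49. At position 63856953, allele 1 at 50-front had 1603, 1403 and 1739 input and 3882, 7742 and 7451 RNA counts in SH-SY5Y, an activity of 2.19 ± 0.47 (edgeR, Benjamini-Hochberg adjusted p = 0.0391). Both alleles at 50-front were between 1.51 and 2.19 in all 4 lines, whereas at 150-front they lay between -1.30 and 0.19. Replicate 1 of the 50-front alleles was the lowest RNA library in each line, for example 1772, 8810 and 8556 for allele 1 in HEK-293T. In PC-12 allele 2 at 100-front was called at 0.89 ± 0.13, with 3671, 3017 and 3728 input and 5534 and 5864 RNA counts (adjusted p = 0.0295). At position 63847374, both alleles at 100-front were called in SH-SY5Y. Allele 1 had 2735, 3218 and 2880 input and 6773, 6533 and 7246 RNA counts and an activity of 1.30 ± 0.28, and allele 2 had 5698, 6352 and 5855 and 12661, 11606 and 10271 and 1.01 ± 0.22 (adjusted p = 0.0401 and 0.0391).

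ERC2, a scaffold protein of the presynaptic active zone, and DCAF1, a substrate receptor of a ubiquitin ligase, had 1 call each, both in SH-SY5Y. For ERC2, at position 56201376, allele 1 at 100-front had 2408, 2199 and 2697 input and 7333, 12358 and 10676 RNA counts and an activity of 2.21 ± 0.39 (edgeR, Benjamini-Hochberg adjusted p = 0.0269). In HEK-293T the same allele had 1671, 15079 and 0 RNA counts and in PC-12 5036 and 0, so its values of 1.25 and 0.14 each rest partly on a library at 0. At 50-front, where allele 1 had 661, 541 and 711 input counts, its values were 2.42, 2.59 and 2.95 in SH-SY5Y, HEK-293T and PC-12, with no call. For DCAF1, at position 51415309, allele 2 at 50-front had 10700, 9062 and 11200 input and 20062, 15771 and 15715 RNA counts and an activity of 0.80 ± 0.13 (adjusted p = 0.0242). Allele 1 of it had input counts of 6983, 5860 and 0, the only member allele with an input library at 0, and was not called.

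The other 9 SNPs had no call in any line, and several of their fragments nonetheless kept the same side of 0 throughout. Both TRANK1 SNPs, near or in a gene for a large protein of repeats, were below 0 in every value, from -1.60 to -0.13 at position 36817092 (20 values) and up to -0.17 at position 36830502 (13 values). The lowest value of the latter, -8.24 for allele 2 at 150-front in PC-12, rests on RNA counts of 4 and 0 against 725, 596 and 763 in the input. The 2 SNPs in DOCK3, which encodes a neuronal activator of the Rac GTPase, each had 1 high fragment. At position 50889578 allele 2 at 50-front was at 1.04, 1.26, 1.28 and 1.20, and at position 50937382 allele 1 at 150-front was at 1.13, 1.01, 1.32 and 1.09 in the 4 lines. For both alleles, replicate 1 was the lowest RNA library in each line.

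In RASSF1, a tumour suppressor that binds Ras, the SNP at position 50336862 had allele 2 at 100-front at 0.91 to 1.11 and allele 1 of the same fragment at -0.34 to 0.36. Over its fragments, alleles and lines this SNP ranged from -5.68 to 1.765. The lowest value was allele 1 at 50-front in PC-12, where 1 RNA library had a count of 0 in that fragment. The SNP in ATXN7, a subunit of a histone-modifying complex, at position 63889058, was highest for allele 1 at 150-front, at 1.34 to 1.95, and lowest for allele 2 at 100-front in Neuro-2a, at -1.52. IFT57, a protein of transport along cilia, had its highest value of 2.06 for allele 1 at 150-front in HEK-293T (position 108167028). The SNP in PPP2R3A, a regulatory subunit of a protein phosphatase, ranged from -0.89 to 1.19 (position 136095167). The SNP nearest to PDCD6IP, an adaptor of membrane-budding complexes, ranged from -2.14 to 0.37 (position 34647809). None of these values passed, and the median SE of a member allele's activity was 0.45 in Neuro-2a, 0.34 in SH-SY5Y, 0.32 in PC-12 and 0.41 in HEK-293T.

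High fitted values leaned towards alleles that were rare in the input. Of the 141 member alleles, 4 had a mean input count under 200: ITIH1 allele 1 and OSBPL10 allele 1 at 50-front, TBL1XR1 allele 2 at 150-front and DCAF1 allele 1 at 100-front. The first 3 of these held values above 3 in at least 1 line, and 1 of the 50 calls came from them. Across member alleles, Spearman's rho between mean input count and activity was -0.22 in Neuro-2a, -0.19 in SH-SY5Y, -0.20 in PC-12 and -0.24 in HEK-293T, a description over alleles that share the libraries and whose activity has the input count as its denominator. The median activity of the 10 to 15 alleles per line with a mean input count under 1000 was 1.08, 0.91, 1.13 and 0.58, against -0.03, -0.01, 0.02 and 0.10 for the others. What part the rarity in the input had in these values was not tested.

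The allelic effect is the activity of allele 2 minus that of allele 1 on the log2 scale, for a fragment with both alleles in the table. Neuro-2a had 1 of 53 member fragments called, and SH-SY5Y 0 of 57, HEK-293T 0 of 58 and PC-12 0 of 59, and over all fragments 0.187%, 0.166%, 0.00% and 0.00% were. At an unadjusted p under 0.05 in edgeR there were 7, 5, 1 and 3 member fragments, against 58 of all 534, 81 of 601, 25 of 606 and 46 of 635. DESeq2's Wald test called 9, 2, 0 and 4 member fragments, against 12.73%, 4.49%, 0.99% and 10.71% of all, and limma-voom 0 in each line. Without RNA replicate 1, edgeR called 20, 29, 10 and 52, against 30.52%, 46.92%, 20.79% and 89.27% of all fragments, the last on 1 RNA library. The median SE of a member's allelic effect was 0.71, 0.63, 0.76 and 0.59 in the same order of lines.

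The called fragment was that of the OSBPL10 and ZNF860 SNP at 50-front in Neuro-2a. Allele 2 over allele 1 was -5.68, -5.67 and -6.07 (log2) in the 3 RNA libraries, and the fit gave -5.83 ± 0.32 with a 95% interval of -6.63 to -5.03 (edgeR, Benjamini-Hochberg adjusted p = 0.00266). The 3 libraries were close to each other, and allele 1, the more active one, had input counts of 107, 73 and 73 against 8041, 6545 and 8746 for allele 2. In SH-SY5Y, HEK-293T and PC-12 the same fragment was at -3.82 ± 3.76, -3.74 ± 3.71 and -2.18 ± 3.43 (adjusted p = 0.62, 0.817 and 0.69). Per library it was -5.19 and -5.58 in replicates 2 and 3 of SH-SY5Y and -5.06 and -5.55 in those of HEK-293T, where replicate 1 had no read of allele 1, and 1.61 and -5.85 in replicates 1 and 3 of PC-12, which differ in sign. The call held without each RNA and each input library in turn, and limma-voom gave an adjusted p of 0.149.

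The other 2 OSBPL10 fragments had no allelic call. At 150-front in Neuro-2a the libraries gave -1.94, -1.67 and -1.10 and the fit -1.57 ± 0.29 (edgeR, unadjusted p = 0.00247, Benjamini-Hochberg adjusted p = 0.264). In SH-SY5Y the same fragment gave -0.64, 4.38 and 2.97, so that replicate 1 had the opposite sign of the others. In HEK-293T the fit of 3.84 ± 4.22 rests on 1 library at 0, and in PC-12 it was -0.36 ± 0.13. At 100-front the fits were -0.93, -1.13, -1.11 and -0.28 in the 4 lines, with 95% intervals of -2.17 to 0.31, -3.18 to 0.92, -2.82 to 0.61 and -1.35 to 0.80, all of which include 0.

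ITIH1 had the most negative fitted allelic effects of the members and no call. At 50-front, allele 2 over allele 1 (log2) in replicates 2 and 3 was -7.32 and -7.77 for Neuro-2a, -7.63 and -7.46 for SH-SY5Y and -6.56 and -7.50 for HEK-293T. Replicate 1 gave no ratio because allele 1 had no read there. The fits of -5.95 ± 4.23, -5.96 ± 4.30, -5.41 ± 3.95 and -1.72 ± 10.57 in the 4 lines had adjusted p-values of 0.66, 0.495, 0.73 and 0.916 in edgeR. At 100-front, where both alleles were low, the fits were 1.38 ± 2.30 for Neuro-2a, 1.10 ± 3.59 for HEK-293T and -6.49 ± 2.44 for PC-12. An allele was at 0 in 1 RNA library of Neuro-2a and PC-12 and in 2 of HEK-293T. Replicate 1 alone gave a ratio in HEK-293T, of 0.31, and in PC-12, of -3.91.

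The SNP beside TBL1XR1 had positive allelic effects in all 7 values, none of which passed. At 100-front the libraries gave 0.29, 2.73 and 2.92 in Neuro-2a, with a fit of 2.03 ± 0.79 and a 95% interval of 0.04 to 4.01 (edgeR, unadjusted p = 0.0467, Benjamini-Hochberg adjusted p = 0.454). In SH-SY5Y, HEK-293T and PC-12 the fits of the same fragment were 0.44, 0.48 and 0.39. At 150-front, where allele 2 is rare in the input, the libraries gave 1.08, 3.26 and 3.27 in HEK-293T and 1.26 and 2.65 in PC-12, with fits of 2.57 ± 0.74 and 1.95 ± 0.51 (adjusted p = 0.677 and 0.59), and 3.71 and 3.53 in replicates 2 and 3 of SH-SY5Y, with a fit of 2.06 ± 2.99.

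Other members had an unadjusted p under 0.05 and the same sign in every RNA library of that line, without passing the adjustment. PBRM1 at 50-front gave 0.97, 1.84 and 2.00 in Neuro-2a and 0.50 and 0.98 in PC-12, with fits of 1.61 ± 0.36 and 0.74 ± 0.20 (edgeR, Benjamini-Hochberg adjusted p = 0.298 and 0.59), and at 100-front -0.78 in Neuro-2a. ATXN7 at 150-front gave -1.86, -3.13 and -2.08 in Neuro-2a and -0.53, -2.28 and -2.44 in SH-SY5Y, with fits of -2.35 ± 0.70 and -1.77 ± 0.63. In addition, DOCK3 (position 50889578) at 50-front had 1.45 ± 0.40 in Neuro-2a, PDCD6IP at 50-front had 1.07 ± 0.30 in SH-SY5Y, and the STAG1 positions 136580037 and 136652849 at 50-front had 1.68 ± 0.64 and -2.42 ± 0.90 in SH-SY5Y.

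The largest positive fits had wide errors and counts of 0 in most cases. They were THOC7 (position 63856953) at 150-front and STAG1 (position 136580037) at 50-front in Neuro-2a, at 3.50 ± 5.92 and 2.33 ± 5.45, where 1 library each had both alleles above 0, with ratios of 3.54 and 2.33. In SH-SY5Y they were ERC2 at 150-front, at 3.19 ± 3.03, with ratios of 1.00 and 2.13 in replicates 2 and 3, and OSBPL10 at 150-front. In HEK-293T they were OSBPL10 at 150-front and EEFSEC at 50-front, the latter at 2.69 ± 2.08 with ratios of 0.48 and 1.99 in replicates 1 and 3. In PC-12 they were RASSF1 at 50-front and 150-front, at 6.78 ± 6.96 and 6.45 ± 7.69, and the most negative after ITIH1 was ATXN7 at 50-front, at -5.44 ± 6.15. Each of these 3 PC-12 fits had 1 RNA library with a count of 0.

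The placement effect is the difference in activity of the same SNP and allele between fragments that place the SNP at different distances from their ends. Neuro-2a had 2 of 100 member pairs called, SH-SY5Y 2 of 110, HEK-293T 0 of 111 and PC-12 6 of 116, and over all pairs 1.22%, 2.60%, 0.337% and 4.25% were. In HEK-293T 11 member pairs had an unadjusted p under 0.05 in edgeR, against 146 of all 1188, DESeq2 called 19 (17.12%, against 15.74% of all) and limma-voom 1 (0.90%, against 1.52%). Without RNA replicate 1, edgeR called 37, 67, 37 and 100 member pairs, against 29.54%, 49.37%, 25.25% and 86.3% of all pairs, and without any 1 input library it called 0 in each line.

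The STAG1 SNP at position 136435986 gave a call in both neuroblastoma lines. Allele 1 was higher at 150-front than at 50-front by 1.53, 1.79 and 2.02 in the 3 Neuro-2a libraries and by 1.14, 1.34 and 1.15 in those of SH-SY5Y. The fits were 1.78 ± 0.22 and 1.21 ± 0.16 (edgeR, Benjamini-Hochberg adjusted p = 0.0384 and 0.0356). In HEK-293T the difference was 1.28 ± 0.51 and in PC-12 -0.89 ± 2.47, neither called. The Neuro-2a call was lost without RNA replicate 2.

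For allele 1 of the OSBPL10 SNP the order was the opposite in Neuro-2a. It was lower at 150-front than at 50-front, with a difference of -4.13 ± 0.24, with -4.07, -4.24 and -4.00 in the 3 libraries (edgeR, Benjamini-Hochberg adjusted p = 0.00324). Both fragments were themselves above the input in that line. At 50-front this allele had a mean input count of 84.3, against 8369.3 at 150-front. The same 50-front counts enter its activity call and the allelic call, so the 3 calls are not separate. In SH-SY5Y, HEK-293T and PC-12 the difference was -7.98 ± 5.62, -9.85 ± 7.74 and -1.25 ± 3.78, with no call.

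For ITIH1, allele 1 was higher at 150-front than at 100-front by 2.06 and 1.84 in PC-12, a fit of 1.95 ± 0.20 (edgeR, Benjamini-Hochberg adjusted p = 0.0333). In Neuro-2a and HEK-293T the same difference was 3.17 ± 2.65 and 7.41 ± 1.65, neither called. Both lines had an RNA library at 0 for this allele at 100-front, and in HEK-293T its other RNA counts there were also low.

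The other placement calls described here were also in PC-12. EEFSEC allele 1 was higher at 100-front than at 50-front by 2.05 and 1.47, a fit of 1.76 ± 0.23. Allele 2 of the SNP nearest to UBE2E2 was lower at 100-front than at 50-front, with a fit of -3.66 ± 0.35, with -4.04 and -3.28 in the libraries. Allele 2 of the STAG1 SNP at position 136418580 was lower at 150-front than at 50-front, with a fit of -1.87 ± 0.24, with -1.74 and -1.99 in the libraries. The adjusted p-values of these calls in edgeR were 0.0452, 0.0333 and 0.0452. The last call, TRANK1 allele 2 between 100-front and 150-front at position 36830502, had a fit of -6.98 ± 0.50. It rests on RNA counts of 4 and 0 at 150-front and 3360 and 0 at 100-front, so replicate 3 had no read of either, and without replicate 1 the fitted value was 2.41.

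Whether activity differed between the 4 lines was tested in 1 fit over all 11 RNA libraries and the shared input. This fit left out the replicate number, although same-numbered RNA libraries deviated together across lines. Its count is therefore to be read beside that with the replicate number as a block. Of 131 member alleles in all 4 tables, 0 passed, and of all alleles 0.0696% did. At an unadjusted p under 0.05 in edgeR there were 7, against 96 of all 1436, and limma-voom called 0. With the replicate number as a block, 3 member alleles passed, against 3.48% of all alleles, and without RNA replicate 1 of each line 7 passed, against 3.06% of all alleles.

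The allele with the smallest p was allele 1 at 100-front of the SNP beside TBL1XR1, with an unadjusted p of 0.00128 and a Benjamini-Hochberg adjusted p of 0.141 in edgeR. Its activities were -1.86 in Neuro-2a, 0.68 in SH-SY5Y, 0.42 in PC-12 and 0.78 in HEK-293T, on the counts given above. Allele 2 of the same fragment came next, with an unadjusted p of 0.00367 (adjusted p = 0.308) and activities of -0.17, 1.18, 1.27 and 0.77. Both were called with the replicate block (adjusted p = 0.0246 and 0.0111), as was THOC7 allele 2 at 50-front, position 63856953 (adjusted p = 0.0337), whose activities of 1.51, 1.96, 1.90 and 1.82 were close to each other. For ITIH1, allele 1 at 150-front had an unadjusted p of 0.0102 (adjusted p = 0.474), with -0.74 in Neuro-2a against -2.42, -2.37 and -1.38.

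The allelic effect did not pass the test of a difference between lines for any of 51 member fragments, nor did it over all fragments (0.00%). No member had an unadjusted p under 0.05 in edgeR (0 of 51, against 4 of all 514), the smallest was 0.102, and limma-voom called 0. With the replicate block the count was again 0. Without RNA replicate 1 of each line, which leaves PC-12 with 1 RNA library, it was 2 (3.92%, against 1.17% of all fragments). The Neuro-2a call of OSBPL10 at 50-front is thus not shown to be particular to that line.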

How the data were processed

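STARR-seq reporter RNA of 4 cell lines and the plasmid input were compared. The authors deposited 1 table of read counts per line, with whole-number, unnormalized counts per fragment and allele in each RNA and input library, per the file headers. The submitters' processing notes name limma 3.40.6. The sources used here do not give the aligner, the counting tool or the build. Libraries held 5875437 to 10201521 RNA and 6380682 to 8421333 input counts. PCR reads are not independent molecules, so depth bounds counting error only.

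Counts were analysed in R 4.3.3 with TMM scaling, a mean count of at least 10 and edgeR 4.0.16's two-sided quasi-likelihood test, with Benjamini-Hochberg adjustment over the whole table of a line at 0.05. The SE is the estimate over the root of its F statistic, and intervals are at 95%. Alleles, placements and lines were compared through interaction terms. Per-library log2 ratios use TMM-scaled counts without a pseudocount, and none is given at a count of 0. Spreads, correlations between replicates and the pairing check use counts scaled to the library total and centred on each library's median. Alternatives were DESeq2 1.42.0 (size factors and Wald test), limma-voom (limma 3.58.1), count minimums, a threshold of 0.1 and each library left out. Across lines, same-numbered RNA libraries deviated together in all 15 pairs (r = 0.146 to 0.708 over alleles), which meets the bar set for a pairing. The numbers come from the column names. Replicates 2 and 3 correlated across numbers as well (0.169 for HEK-293T 2 with Neuro-2a 3 and 0.538 for PC-12 3 with SH-SY5Y 2), centring alone ties them to replicate 1, and only replicate 1 was set apart by its number.

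The rule for the SNPs uses no measured value, but the set was proposed, and the region and the rule for named features were chosen, with earlier results of these data known. Values per library are given for the 3 SNPs of the choice by gene name, for every call, and per line for the 2 highest and lowest activities and the 2 largest allelic effects in each direction. PC-12 replicate 2 was not used here. The values of 1 of the 29 SNPs are not reported here, although counts over the members include it. The input is the same in all 4 tables, so values of different lines share it.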

Additional observations from a re-analysis of the deposited data

How the results depend on the processing

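Counts of member calls are given for the 4 lines in the order used above, with the counts of edgeR in parentheses. For activity (10, 23, 3 and 14), an adjusted p of 0.1 gave 23, 46, 11 and 36, DESeq2's Wald test 47, 56, 44 and 61, limma-voom 12, 19, 8 and 19, and leaving out alleles with a count of 0 gave 17, 37, 8 and 24. Over all alleles these settings called 12.1%, 26.38%, 6.73% and 20.01%, then 27.87%, 30.92%, 23.57% and 40.33%, then 7.61%, 11.91%, 4.04% and 13.69%, and last 12.69%, 22.73%, 7.53% and 16.8%. For the allelic effect (1, 0, 0 and 0), DESeq2's test gave 9, 2, 0 and 4 (12.73%, 4.49%, 0.99% and 10.71% of all fragments) and limma-voom 0 in each line. For placement (2, 2, 0 and 6), an adjusted p of 0.1 gave 4, 9, 0 and 9, DESeq2's test 21, 36, 19 and 28, limma-voom 2, 7, 1 and 6, and leaving out counts of 0 gave 5, 9, 1 and 6. Over all pairs these were 2.35%, 8.13%, 1.26% and 7.86%, then 17.5%, 30.34%, 15.74% and 34.75%, then 3.86%, 6.37%, 1.52% and 6.45%, and last 5.32%, 8.01%, 2.00% and 9.31%. Of the calls by edgeR, limma-voom lost 3 of 10, 7 of 23, 0 of 3 and 1 of 14 in activity, the 1 allelic call in Neuro-2a, and, in placement, 3 of 6 for PC-12, 1 of 2 for Neuro-2a and 0 of 2 for SH-SY5Y. DESeq2's size factors and the other count minimums kept these counts within 1.5 times. The cause of these differences was not tested.

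With 1 library left out at a time, the activity counts ran from 0 to 63, 0 to 87, 0 to 56 and 0 to 128, the allelic counts from 1 to 20, 0 to 29, 0 to 10 and 0 to 52, and the placement counts from 0 to 37, 0 to 67, 0 to 37 and 0 to 100. The highest count in each range came without RNA replicate 1, and the activity and placement counts of 0 came without any 1 input library (in HEK-293T also 0 placement calls without RNA replicate 3). Leaving out 1 of 2 PC-12 libraries leaves the spread to the input alone.

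Between lines, the activity count moved from 0 to 3 with the replicate block and ran from 0 to 7 with libraries left out, 7 being without RNA replicate 1 of each line. The allelic count ran from 0 to 2, 2 being without the same libraries (3.92%, against 1.17% of all fragments). The replicate block left the allelic count at 0, so it changed no other call. The other alternatives gave 0 for both.

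Fitted values of named features changed sign as follows. With limma-voom, SH-SY5Y activity was -1.47 for TBL1XR1 allele 2 at 150-front (3.18 in edgeR), -1.25 for OSBPL10 allele 1 at 150-front (0.18) and -0.39 for OSBPL10 allele 1 at 50-front (5.63), the allelic effect of OSBPL10 at 150-front there was -0.46 (2.41), and PC-12 activity of TBL1XR1 allele 2 at 50-front was -0.089 (0.127). DESeq2's size factors and DESeq2's test both gave 0.023 for HEK-293T activity of OSBPL10 allele 1 at 150-front (-0.004 in edgeR).

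The other changes of sign came with 1 library left out. In activity, TBL1XR1 allele 1 at 100-front ran from -0.003 to 0.754 and its allele 2 at 50-front from -1.03 to 0.76 in PC-12. In SH-SY5Y, TBL1XR1 allele 1 at 150-front ran from -0.37 to 0.16, its allele 2 at 50-front from -0.36 to 1.61, OSBPL10 allele 1 at 150-front from -3.14 to 0.77 and ITIH1 allele 2 at 50-front from -0.560 to 0.062. In HEK-293T, OSBPL10 allele 2 at 100-front ran from -0.11 to 0.74 and its allele 1 at 150-front from -4.54 to 0.60. In PC-12, allele 1 at 50-front ran from -0.16 to 7.21 for OSBPL10 and from -8.63 to 7.66 for ITIH1.

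The allelic effect ran, in Neuro-2a, from -2.56 to 7.01 for STAG1 at 50-front (position 136580037), from -0.092 to 3.145 for ITIH1 at 100-front and from -3.66 to 7.12 for THOC7 at 150-front (position 63856953). In PC-12 it ran from -0.18 to 0.95 for TBL1XR1 and from -0.85 to 0.30 for OSBPL10 at 100-front, and from -5.87 to 1.58 for OSBPL10 and from -7.65 to 9.33 for ITIH1 at 50-front. In SH-SY5Y it ran from -0.74 to 3.62 for TBL1XR1 at 150-front and from -5.41 to 0.32 for OSBPL10 at 50-front, and in HEK-293T from -5.33 to 0.38 for OSBPL10 at 50-front and from -0.49 to 4.62 for ITIH1 at 100-front. The placement call of TRANK1 in PC-12 ran from -7.27 to 2.41. With all libraries in edgeR, none of these values was a call other than the last. A refit could pass with the sign reversed. One was SH-SY5Y activity of OSBPL10 allele 1 at 150-front without RNA replicate 1, at -3.14 (edgeR, adjusted p = 0.0187). Over the 143 named values, 1274 of 1642 refits kept sign and side of the threshold, 223 lost a call, 111 gained one and 34 changed sign.

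Member alleles with few input counts or with a library at 0 have the widest errors, and a p that misses the threshold does not show that an allele was inactive.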
